A study of Rattus norvegicus with 18 samples.

Results

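The circadian clock genes of a fast muscle were described across the 4 diet groups of the study and between animals of the same group. Of 10 genes named for this purpose, among 16856 genes with a symbol on the array, 8 had a probe set carrying their symbol alone, and each had exactly 1 such probe set. These were Per1 (probe set 10734882), Per2 (10929842), Per3 (10881861), Cry1 (10894525), Cry2 (10847525), Dbp (10706953), Clock (10772249) and Bmal1 (10710028). All 8 lay above the filter on dim probe sets, which left 12642 genes. Nr1d1 appeared only on 2 probe sets shared with Thra, the overlapping thyroid hormone receptor gene on the opposite strand, and Nr1d2 is not analysed here.

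In mammals CLOCK and BMAL1 form a dimer that binds E-box elements and drives the Per and Cry genes, whose proteins return to the nucleus and repress the dimer. The same dimer drives Dbp, an activator at D-box elements, and the Nr1d genes, whose products repress Bmal1 at ROR elements. Skeletal muscle holds such a clock in its own fibres. The Per and Dbp messages and the Bmal1 message then reach their peaks in opposite parts of the day, so that their levels in a muscle depend on the hour at which it is taken.

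The extensor digitorum longus (EDL), a fast hindlimb muscle, was taken from 18 adult female Sprague-Dawley rats of the second filial generation (F2), kept under a 12:12 h light:dark cycle. Their founding grandfathers (F0) had eaten chow or a high-fat diet, and the females then ate chow or a diet with 42/45% of its energy from fat for 12 weeks. In each group name the grandfather’s diet stands before the slash and the female’s own diet after it. High-fat/high-fat and high-fat/chow held 4 animals each, and chow/high-fat and chow/chow held 5 each. Each animal had 1 array, hybridized with label made from 200 ng of total RNA. The labels give neither the hour of dissection nor the number of founders in a lineage, and animals that share a grandfather were counted as independent. Values are log2(intensity + 16) of the deposited intensities after quantile normalization, called levels here, and differences are high-fat minus chow. Levels of different probe sets are not set against each other.

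Ckm, Acta1, Pvalb and Tnnt3, the 4 of 8 fast-muscle markers measured, had mean levels of 13.0, 13.2, 12.3 and 12.9, against a filter of 5.28. Median deposited intensities of the arrays ran between 55.02 and 73.97, and the 2 lowest were chow/high-fat replicates 5 and 4. The precision is limited by how many arrays there were. In whole muscle, fewer cells of a type and less RNA per cell cannot be told apart.

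The promoters of Per1, Dbp, Bmal1 and Per2, the members that varied most between animals, are shown because the clock acts through short elements in promoters. RefSeq windows of build GRCr8 around the starts of genes were found for 9 of the 10 genes, and Cry1 was the exception. Short motifs were searched on both strands: the E-box CACGTG, its variant CACGTT, the D-box TTANGTAA, the ROR element cores TAGGTCA and TAGGTTA, and the CRE TGACGTCA. Capitals mark the matches in the sequences that follow, where there are any, each read 5′ to 3′ on the strand of its gene.
Per1, chr10:54304126-54304425, + strand: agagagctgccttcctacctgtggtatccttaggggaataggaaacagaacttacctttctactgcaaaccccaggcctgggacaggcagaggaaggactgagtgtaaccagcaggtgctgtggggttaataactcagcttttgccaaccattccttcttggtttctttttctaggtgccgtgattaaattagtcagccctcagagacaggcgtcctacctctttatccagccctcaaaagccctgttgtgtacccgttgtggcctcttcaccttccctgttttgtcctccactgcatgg
Bmal1, chr1:176766078-176766377, + strand: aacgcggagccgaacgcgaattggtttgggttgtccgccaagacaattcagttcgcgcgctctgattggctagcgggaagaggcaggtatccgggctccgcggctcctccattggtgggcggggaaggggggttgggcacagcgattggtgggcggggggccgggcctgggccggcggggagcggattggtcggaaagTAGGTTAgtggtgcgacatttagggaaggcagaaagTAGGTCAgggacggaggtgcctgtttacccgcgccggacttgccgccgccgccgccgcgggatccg
Per2, chr9:99496944-99497243, − strand: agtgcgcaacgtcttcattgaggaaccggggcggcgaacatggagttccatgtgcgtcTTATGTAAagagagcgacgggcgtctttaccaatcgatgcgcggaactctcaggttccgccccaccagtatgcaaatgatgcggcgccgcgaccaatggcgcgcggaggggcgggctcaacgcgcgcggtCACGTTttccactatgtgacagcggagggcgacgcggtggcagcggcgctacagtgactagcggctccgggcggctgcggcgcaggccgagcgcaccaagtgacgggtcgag
Dbp, chr1:105312006-105312305, + strand: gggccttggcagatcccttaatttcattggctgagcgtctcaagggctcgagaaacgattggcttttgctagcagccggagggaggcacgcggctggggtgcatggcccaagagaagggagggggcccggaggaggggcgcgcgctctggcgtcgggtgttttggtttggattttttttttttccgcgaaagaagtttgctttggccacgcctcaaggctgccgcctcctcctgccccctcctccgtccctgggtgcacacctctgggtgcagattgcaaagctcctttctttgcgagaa

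The Bmal1 window held both ROR element cores, TAGGTTA 52 bases and TAGGTCA 16 bases before the start. The Per2 window held a D-box, TTATGTAA, 192 bases before the start and the E-box variant CACGTT 62 bases before it. The Dbp window held none of these motifs, nor did those of Per1, Per3, Clock or Nr1d2. Of the 2 windows of Nr1d1, 1 held the E-box 191 bases and the other the variant 174 bases before the start. The Cry2 window (chr3:98860388-98860687) held the E-box variant on its other strand, 212 bases before the start. Of 33469 such windows of rat genes, 6.42% held the E-box, 4.83% its variant, 2.24% the D-box, 2.63% TAGGTCA, 1.61% TAGGTTA and 1.83% the CRE. The windows of the members were 300 bases long, so a window without a match says nothing of elements outside it. A match describes letters in a window of this size and is not a measured binding site.

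The opening comparisons asked whether the diet of the female or that of her grandfather moved the muscle clock. None of the 8 clock genes was called in any of 7 comparisons, which took the own diet separately by lineage, the grandpaternal diet separately by own diet, their interaction and the 2 averages. Over these 56 tests the smallest unadjusted p was 0.0805 and the smallest adjusted p 0.402 (limma, Benjamini-Hochberg over 12642 genes), so that 0 of 8 members passed even an unadjusted threshold of 0.05. Of all genes tested, 0.0158% were called for the own diet on average and 0.198% for the grandpaternal diet on average, against 6.73% and 14.6% at an unadjusted p under 0.05. For the own diet 0% of genes were called in either lineage, with 9.25% in the high-fat and 4.8% in the chow lineage at an unadjusted p under 0.05. For the grandpaternal diet these shares were 0% and 13.3% among females fed high-fat diet, and 0.00791% and 8.75% among those fed chow. For the interaction they were 0% and 6.83%. The median difference of the 8 genes was 0.042 for the own diet and 0.015 for the grandpaternal diet on average, beside -0.0028 and -0.0027 over all genes. In all 32 comparisons of ranges between 2 groups, taken for the own diet within a lineage and the grandpaternal diet within an own diet, the ranges of a clock gene overlapped. Overlap was not counted over all genes, so this describes the 8 genes and does not set them apart from others.

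Bmal1, the partner of CLOCK in the activating dimer, had levels of 8.35, 7.76, 8.78 and 8.68 in the high-fat/high-fat animals and 8.65, 8.59, 8.34 and 7.84 in the high-fat/chow animals. Its levels were 8.41, 8.70, 7.58, 8.54 and 8.90 in the chow/high-fat animals and 8.72, 8.85, 8.10, 8.83 and 8.64 in the chow/chow animals. Each group held 1 animal well below its companions, and the 4 groups covered much the same span. The own diet differed by -0.083 log2 on average over lineages (SE 0.17, 95% confidence interval -0.44 to 0.28, limma adjusted p = 0.970). The grandpaternal diet differed by -0.15 log2 on average (SE 0.17, interval -0.51 to 0.21, limma adjusted p = 0.723). Clock, whose product is the partner of BMAL1, ran from 9.49 to 9.83 in the high-fat/high-fat animals, 9.50 to 9.65 in high-fat/chow, 9.37 to 9.92 in chow/high-fat and 9.54 to 9.84 in chow/chow. Its own-diet difference was 0.049 (SE 0.076) and its grandpaternal difference -0.071 (SE 0.076), with limma adjusted p = 0.953 and 0.708.

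Per1, the repressor gene that light, activity and stress hormones also induce, had levels of 8.75, 9.20, 8.42 and 8.92 in the high-fat/high-fat animals and 9.07, 8.12, 8.44 and 8.91 in the high-fat/chow animals. It had 8.96, 8.79, 9.43, 8.16 and 8.65 in the chow/high-fat animals and 9.02, 9.11, 9.28, 7.76 and 8.07 in the chow/chow animals. The chow/chow group alone spanned 1.52 log2, so that its animals lay on both sides of most animals of the other groups. The difference was 0.17 for the own diet (SE 0.21, interval -0.27 to 0.61) and 0.0054 for the grandpaternal diet (SE 0.21, interval -0.43 to 0.44).

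Per2, a core repressor that binds the CRY proteins, had levels of 7.67, 8.05, 7.32 and 7.68 in the high-fat/high-fat animals and 7.82, 7.25, 7.50 and 7.96 in the high-fat/chow animals. It had 7.45, 7.32, 8.39, 7.36 and 7.36 in the chow/high-fat animals and 7.63, 7.55, 8.22, 7.52 and 7.40 in the chow/chow animals. In the 2 chow lineage groups a single animal stood well above the rest, and the other 8 animals of that lineage kept to levels between 7.32 and 7.63. The own-diet difference was -0.019 (SE 0.15) and the grandpaternal difference 0.036 (SE 0.15). Per3, the third Per gene, had mean levels of 8.37 ± 0.13 in high-fat/high-fat, 8.51 ± 0.086 in high-fat/chow (SD, n = 4 each), 8.40 ± 0.31 in chow/high-fat and 8.43 ± 0.27 in chow/chow (SD, n = 5 each). Its differences were -0.085 (SE 0.098) for the own diet and 0.024 (SE 0.098) for the grandpaternal diet. None of these differences of the Per genes passed (limma adjusted p between 0.921 and 0.993).

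Cry1, the stronger repressor of the CRY pair, had the smallest p of the 8 genes: the mean level was 7.15 ± 0.14 in high-fat/high-fat and 7.04 ± 0.079 in high-fat/chow animals (SD, n = 4 each), against 7.23 ± 0.15 in chow/high-fat and 7.18 ± 0.13 in chow/chow animals (SD, n = 5 each). The grandpaternal difference was -0.11 on average (SE 0.061, interval -0.24 to 0.015, limma adjusted p = 0.402), and it was not called. Cry2 ran from 8.82 to 9.04 in high-fat/high-fat, 8.81 to 9.05 in high-fat/chow, 8.74 to 9.21 in chow/high-fat and 8.66 to 9.05 in chow/chow animals. Its own-diet difference was 0.14 in the chow lineage (SE 0.088) and -0.0065 in the high-fat lineage (SE 0.098), and the interaction of -0.15 was not called (SE 0.13, limma adjusted p = 0.852).

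Dbp, the D-box activator and a direct output of the dimer, had levels of 10.86, 11.31, 10.87 and 10.95 in the high-fat/high-fat animals and 10.91, 10.50, 10.71 and 11.61 in the high-fat/chow animals. It had 10.98, 10.49, 11.71, 10.43 and 10.12 in the chow/high-fat animals and 10.65, 10.66, 11.55, 10.22 and 10.63 in the chow/chow animals. Here each group held 1 animal above its companions, and the groups overlapped. The difference was 0.035 for the own diet (SE 0.20, interval -0.38 to 0.45) and 0.22 for the grandpaternal diet (SE 0.20, interval -0.20 to 0.64, limma adjusted p = 0.635). The 2 probe sets that Nr1d1 shares with Thra ran from 10.71 to 11.18 and from 9.41 to 9.78 over the 18 animals, with SDs within groups of 0.12 and 0.11, and give no level of Nr1d1 itself.

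**Figure D1:**
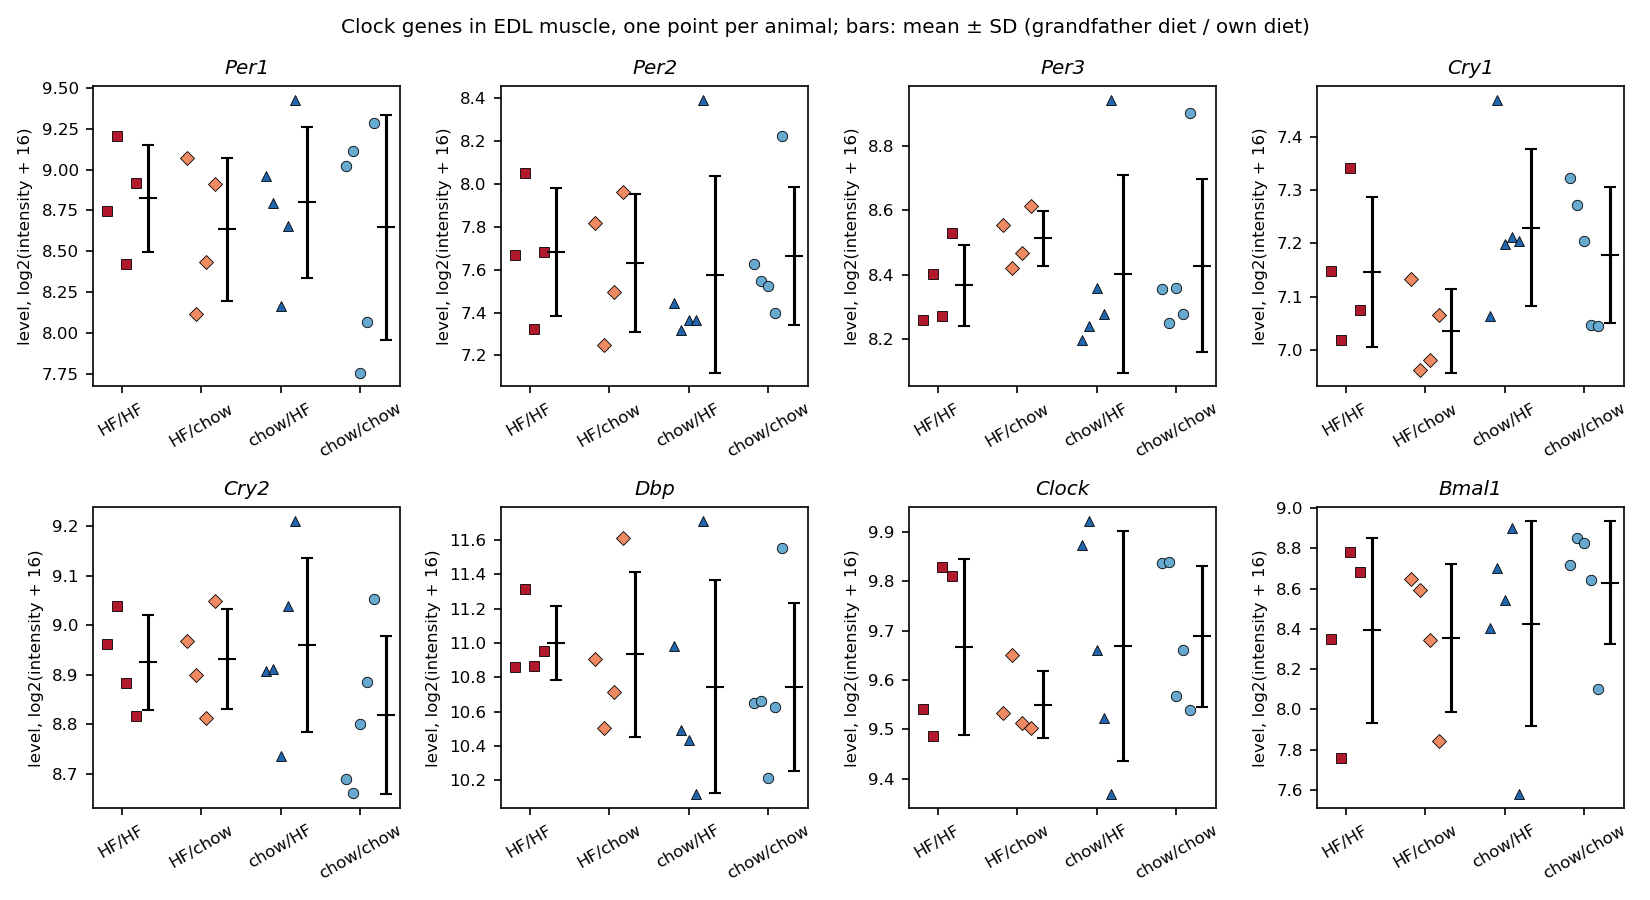
Levels of the 8 clock genes in log2(intensity + 16), 1 point per animal, with the group mean and SD beside the points; HF stands for high-fat and the names give grandfather diet and then own diet. The groups overlap in every panel, and 1 animal of each group is high for Dbp and low for Bmal1.

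**Figure D2:**
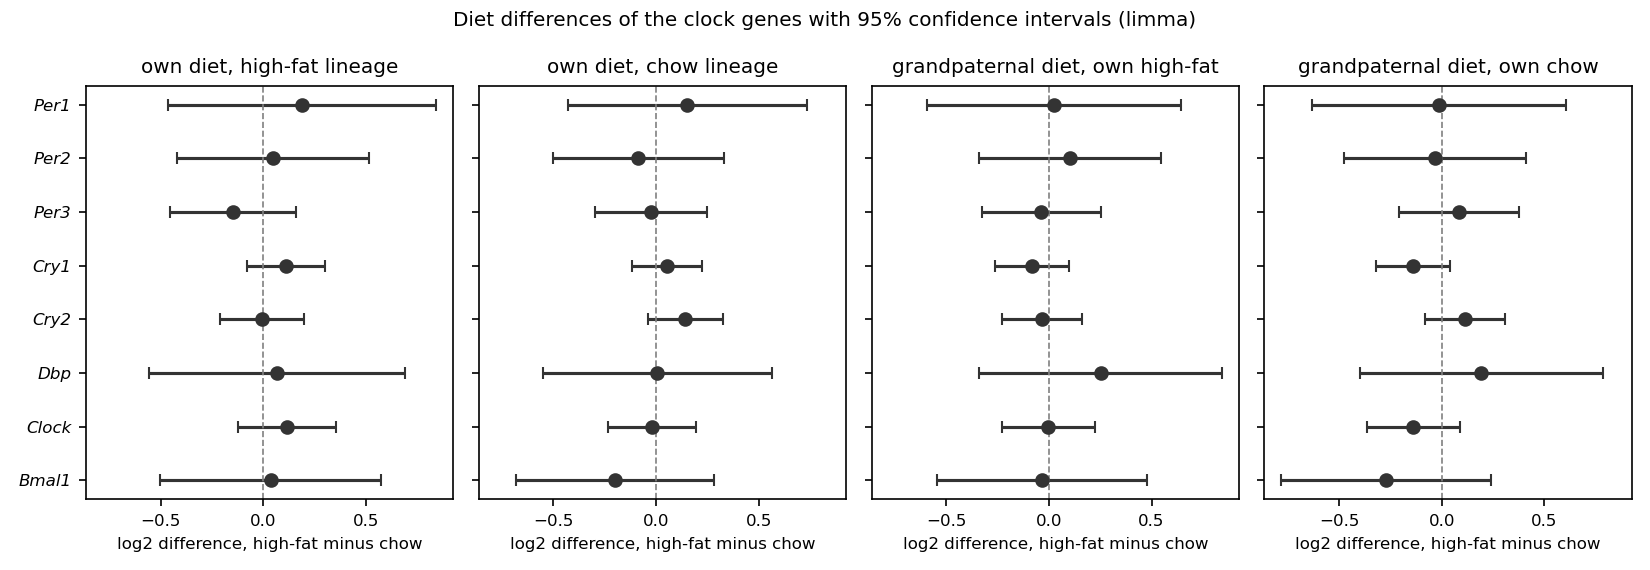
Differences in log2, high-fat minus chow, of the 8 clock genes for the own diet in each lineage and the grandpaternal diet at each own diet, with 95% confidence intervals from limma. The intervals of Per1, Dbp and Bmal1 are the widest and those of Cry1 and Cry2 the narrowest, and every interval includes 0.

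Clock genes outside the set were tested in the same fits. Among further outputs and repressors 9 of 10 were measured, among the paralogues and nuclear receptors of the activating arm 3 of 5, and among the kinases, ubiquitin ligases and partners of the clock proteins 7 of 10. In both averages 0 genes of these 3 lists were called higher and 0 lower (limma). For the own diet the smallest p of each list belonged to Hlf, a D-box activator (-0.14, SE 0.080), and Wee1, a cell cycle kinase (-0.10), to Rora and Rorb, which activate at ROR elements (0.051 and -0.040), and to Fbxw11, a ubiquitin ligase subunit for PER (0.085), and Csnk1e, a kinase of PER (0.067). For the grandpaternal diet they belonged to Tef, a D-box activator (0.13), and Nampt, which makes a precursor of NAD (0.065), to Npas2, the paralogue of CLOCK (-0.22, SE 0.19), and Rora (-0.099), and to Gsk3b, a kinase of several clock proteins (-0.13, SE 0.046, adjusted p = 0.203), and Timeless (0.14, SE 0.050, adjusted p = 0.213). Gsk3b and Timeless were the only 2 genes of these lists with an unadjusted limma p under 0.05 in either average. Both were for the grandpaternal diet: 2 of 7 in the third list, 0 of 9 and 0 of 3 in the others, where 14.6% of all genes reached that threshold. Timeless, with a mean level of 5.33, lay just above the filter of 5.28. The medians of the 3 lists were -0.018, 0.051 and 0.025 for the own diet and 0.043, -0.099 and -0.041 for the grandpaternal diet.

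Between animals of one group, in contrast to the groups, the clock genes varied widely. The SD between animals within groups was 0.51 log2 for Per1, 0.49 for Dbp, 0.42 for Bmal1 and 0.36 for Per2, against a median of 0.14 over all genes tested. These 4 lay at percentiles 99.3, 99.2, 98.8 and 98.0 of all genes, which is a description and was not tested. Per3, with 0.23, lay at percentile 90.8 and Clock, with 0.17, at 73.7. Cry2 and Cry1, with 0.14 and 0.13, lay at 54.6 and 42.7, near the middle of all genes. The most variable members were thus an output, an activator and the repressors Per1 and Per2, while the CRY genes varied about as much as most genes.

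**Figure D3:**
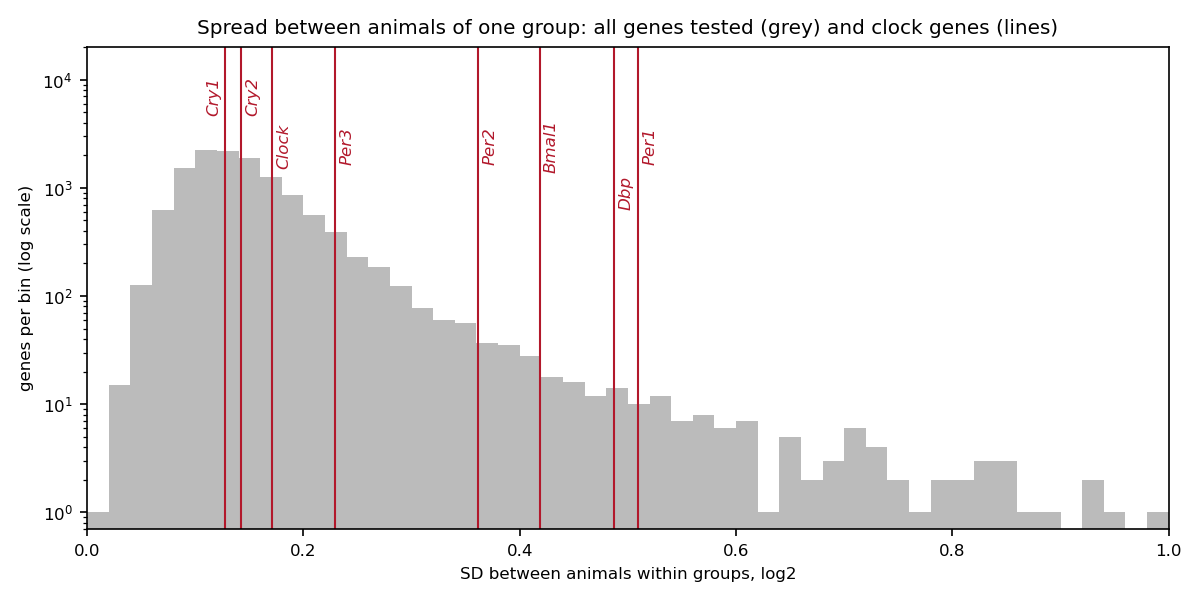
Number of genes (log axis) by SD between animals within groups, in log2, for the 12642 genes tested in grey, with the 8 clock genes as lines. Per1, Dbp, Bmal1 and Per2 lie between 0.36 and 0.51 in the right tail, and Cry1 and Cry2 lie near the median of 0.14.

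Some genes of the further lists also varied more than most genes. Npas2 had an SD of 0.47 (percentile 99.1), Nfil3, which represses at D-boxes, 0.41 (98.7), Noct, a rhythmic phosphatase of NADP, 0.39 (98.4), Bhlhe41, a repressor at E-boxes, 0.33 (97.3), Usp2, a rhythmic deubiquitinase, 0.28 (95.6) and Tef 0.24 (91.8). The 7 measured kinases, ubiquitin ligases and partners of the clock proteins all lay at or below percentile 26.8. Apart from those, Bhlhe40 with 0.15, Nampt with 0.14 and Wee1 with 0.155 varied about as much as most genes. Hlf, Rora and Rorb lay at percentiles 78.3, 76.8 and 60.2.

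The animals were put in order by a phase index, the mean of the centred levels of Per1, Per2, Per3 and Dbp minus that of Bmal1. It is a description in log2 with no test. Chow/high-fat replicate 3 had the highest index, 1.59, followed by high-fat/high-fat replicate 2 with 1.04, high-fat/chow replicate 4 with 0.98 and chow/chow replicate 3 with 0.94. The other 14 animals lay between -0.81 and 0.087. The step of 0.85 between the fourth and the fifth animal was 35.4% of the whole range of 2.40, and the next largest step, 0.56, lay between the highest animal and the second. Each group therefore held exactly 1 of the 4 animals of highest index. Chow/high-fat replicate 3 was the highest of all animals for Per1, Per2, Per3 and Dbp and the lowest for Bmal1, while high-fat/high-fat replicate 2 was near the mean for Per3. Group means of the index were 0.13 ± 0.65 for high-fat/high-fat, 0.12 ± 0.61 for high-fat/chow (SD, n = 4 each), 0.0067 ± 0.93 for chow/high-fat and -0.21 ± 0.67 for chow/chow (SD, n = 5 each).

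**Figure D4:**
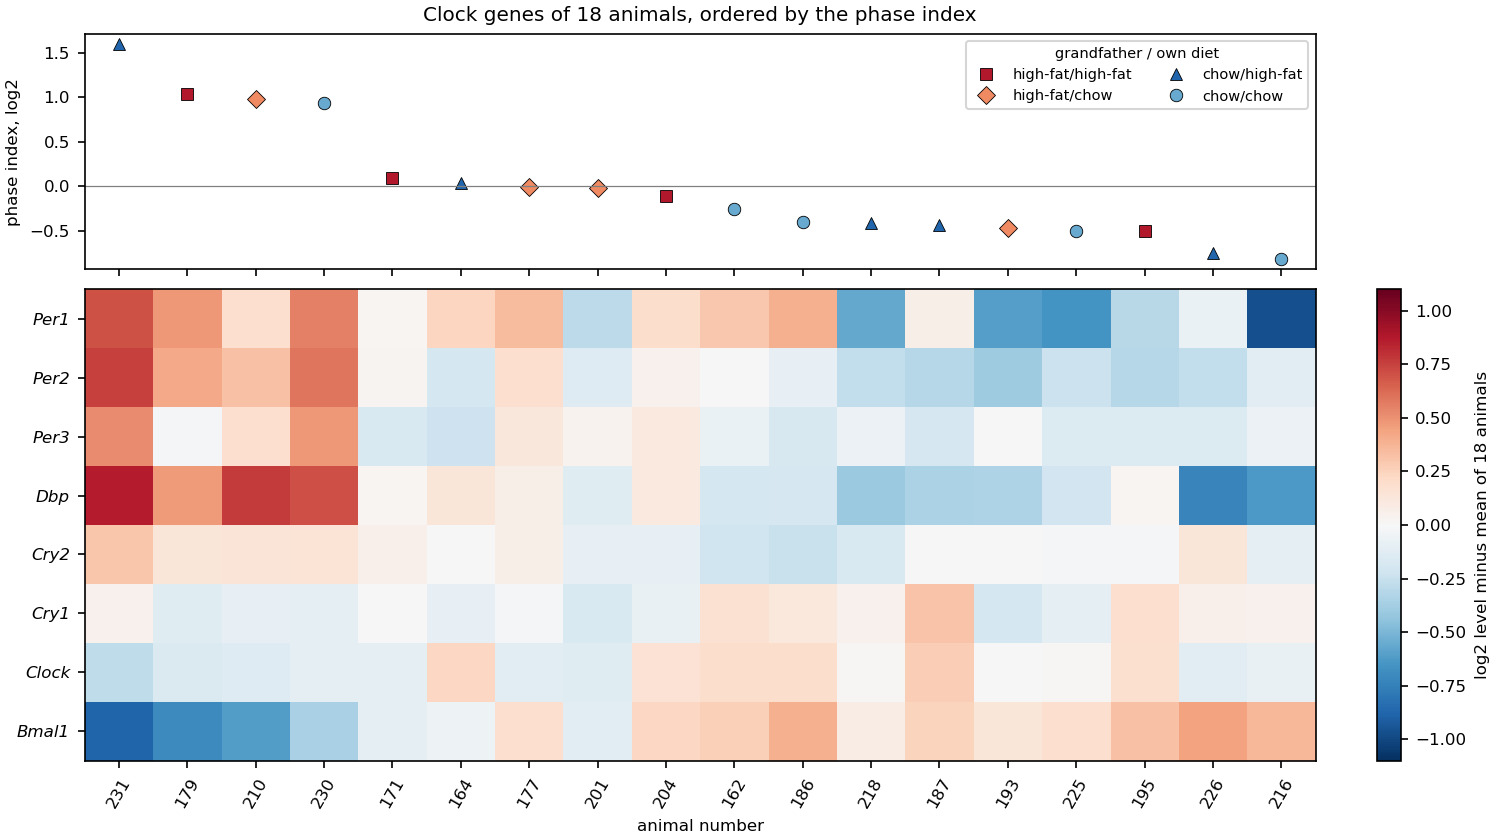
The phase index of each animal in log2 (upper panel, symbols by group) and the levels of the 8 clock genes minus their mean over 18 animals (lower panel, colour scale in log2), with animals named by number and ordered by the index. The 4 animals on the left, 1 of each group, are above the mean for Per1, Per2 and Dbp and below it for Bmal1, with a step to the other 14.

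Members were then compared in pairs over the 18 animals, after each level was centred on its group mean, with permutation of animals within groups. Of 28 pairs, 17 had an unadjusted permutation p under 0.05, 9 positive and 8 negative, against 7.1% of 101072 pairs of a member and another gene. After adjustment over all these pairs together 0 of 28 were called, as were 0% of the others, and the smallest adjusted p was 0.259. The smallest p that the permutations can give, 1e-05, is too large for a pair to pass this adjustment on its own. The absence of calls therefore decides nothing about any given pair. Among the 14 animals outside the 4 of highest index, 2 of 28 pairs had a permutation p under 0.05, against 6.09% of the pairs with other genes. Those 4 were set apart by an index made from 5 of these genes, so a smaller r among the 14 follows in part from that choice and from the smaller number.

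Dbp and Bmal1 gave r = -0.87 over 18 animals (Spearman's rho -0.61, permutation p = 0.00018, 0.259 after adjustment over all pairs) and r = -0.49 over 14 (rho -0.19, permutation p = 0.136). Without the 2 animals farthest from the median of Dbp the pooled r was -0.77. Per2 and Bmal1 gave -0.86 (rho -0.62, permutation p = 0.001, adjusted 0.376) and -0.16 over 14. Per2 and Dbp gave 0.88 (rho 0.81, permutation p = 8e-05, adjusted 0.259) and 0.41 over 14.

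Among the 14 animals the 2 highest values of r were both of Per1. They were the 2 of 28 pairs with a permutation p under 0.05, a share near the 6.09% of pairs with other genes. With Per2, Per1 gave r = 0.74 over 18 animals (rho 0.81, permutation p = 0.00061, adjusted 0.337) and 0.64 over 14 (permutation p = 0.0104). With Dbp it gave 0.73 over 18 (rho 0.82, permutation p = 0.00137, adjusted 0.390) and 0.61 over 14 (permutation p = 0.0301). Per2 and Per3 gave 0.87 over 18 and 0.48 over 14. Clock and Bmal1, which encode the dimer, gave 0.62 over 18 (permutation p = 0.0209, adjusted 0.619) and 0.058 over 14. Cry2 and Clock gave -0.70 over 18 (permutation p = 0.00641, adjusted 0.519) and -0.44 over 14. Cry1 had no permutation p under 0.05 with its 7 partners in either set of animals.

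Other features of the arrays moved with these genes. The titles carry a tag like the position on a plate, with columns 5, 7 and 9, which the labels do not explain, and none of the 4 animals is in column 5. Within column 5 (8 arrays) Dbp and Bmal1 gave r = -0.37, and within column 7 (6 arrays) -0.97, and of the 17 pairs 9 kept their sign in column 5 and 17 in column 7. The deposited median of an array correlated with Dbp (r = 0.51), Per2 (0.46) and Bmal1 (-0.53) over 18 animals, centred on groups. The part of the column or the array median in the result was not tested.

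The titles also carry a number for each animal, and the labels do not say whether neighbouring numbers share a litter, a cage or an hour of dissection. There were 8 pairs of numbers at most 3 apart in 1 lineage, each of a high-fat-fed and a chow-fed female. The deviations of the paired females from their own group means were closely alike for Per2 (r = 0.96 over 8 pairs, rho 0.80, exact permutation p = 0.00119), Per3 (r = 0.92, rho 0.83, exact p = 0.00965) and Per1 (r = 0.88, rho 0.83, exact p = 0.00211). Dbp gave 0.79 (rho 0.67, exact p = 0.0319), Clock 0.79 (rho 0.79, exact p = 0.0268) and Cry2 0.76 (rho 0.64, exact p = 0.0291). Bmal1 gave 0.49 (exact p = 0.222) and Cry1 -0.17 (exact p = 0.645). So 6 of 8 clock genes had an unadjusted exact p under 0.05, against 7.91% of 12641 genes. None passed after adjustment over all genes, where the clock genes ranged from 0.462 to 0.944 and 0% of genes were called (smallest adjusted p 0.355). With 8 pairs the smallest exact p possible is too large for a single gene to pass this adjustment. The absence of calls therefore decides nothing about any 1 gene.

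The median r of all genes was 0.12, and Per2, Per3 and Per1 lay at percentiles 99.9, 99.8 and 99.4. The relation leaned on chow/high-fat replicate 3 and chow/chow replicate 3, a pair of which both females belong to the 4 animals of highest index. Without that pair 2 of 8 clock genes had an exact p under 0.05, and the share of all genes was not taken for that setting. Most of the clock genes moved together over the same animals, so these counts are not of separate results. For each gene separately, r was also taken without the 2 pairs whose high-fat-fed female lay farthest from the median of these females. It was then 0.76 for Per1, 0.64 for Per2, 0.73 for Per3, 0.68 for Dbp, 0.74 for Clock, 0.87 for Cry2, -0.13 for Bmal1 and -0.87 for Cry1.

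Pair by pair, Per1 lay on the same side of its group means in 6 of 8 pairs, at both high and low levels. It was 9.43 and 9.28 in replicates 3 of chow/high-fat and chow/chow, 8.96 and 9.02 in replicates 1, and 8.79 and 9.11 in replicates 2. At the low end of this lineage it was 8.16 and 7.76 in replicates 4, and 8.65 and 8.07 in replicates 5. In the high-fat lineage it was 9.20 in high-fat/high-fat replicate 2 and 9.07 in high-fat/chow replicate 1, 8.42 in replicate 3 and 8.12 in replicate 2 of these groups, and 8.92 in replicate 4 and 8.44 in replicate 3. Females high for Per1 were thus mostly paired with females high for Per1, and low with low. The mean absolute difference within a pair was 0.30 log2 for Per1, against 0.60 over 33 other combinations of a high-fat-fed and a chow-fed female of 1 lineage. It was 0.16 against 0.41 for Per2, 0.071 against 0.25 for Per3 and 0.30 against 0.54 for Dbp. For Bmal1 it was 0.37 against 0.43 and for Cry1 0.17 against 0.13. Within pairs the high-fat-fed female had the higher Per1 in 6 of 8, the higher Dbp in 6 of 8 and the higher Bmal1 in 3 of 8.

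Bmal1 was least alike in high-fat/high-fat replicate 2 and high-fat/chow replicate 1. The first of them, 1 of the 4 animals, had 7.76 and the other had 8.65, the widest gap of any pair for this gene, while their Per1 levels differed by 0.13. The SEs and intervals of the own diet given earlier do not use these pairs. Within the 8 pairs, high-fat-fed minus chow-fed, the mean difference was 0.21 for Per1 (SD 0.30) and -0.17 for Bmal1 (SD 0.42). With the pairs as a fixed block, a fit chosen after values were seen, the own diet differed by 0.23 for Per1 on average and was not called (limma adjusted p = 0.378).

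**Figure D5:**
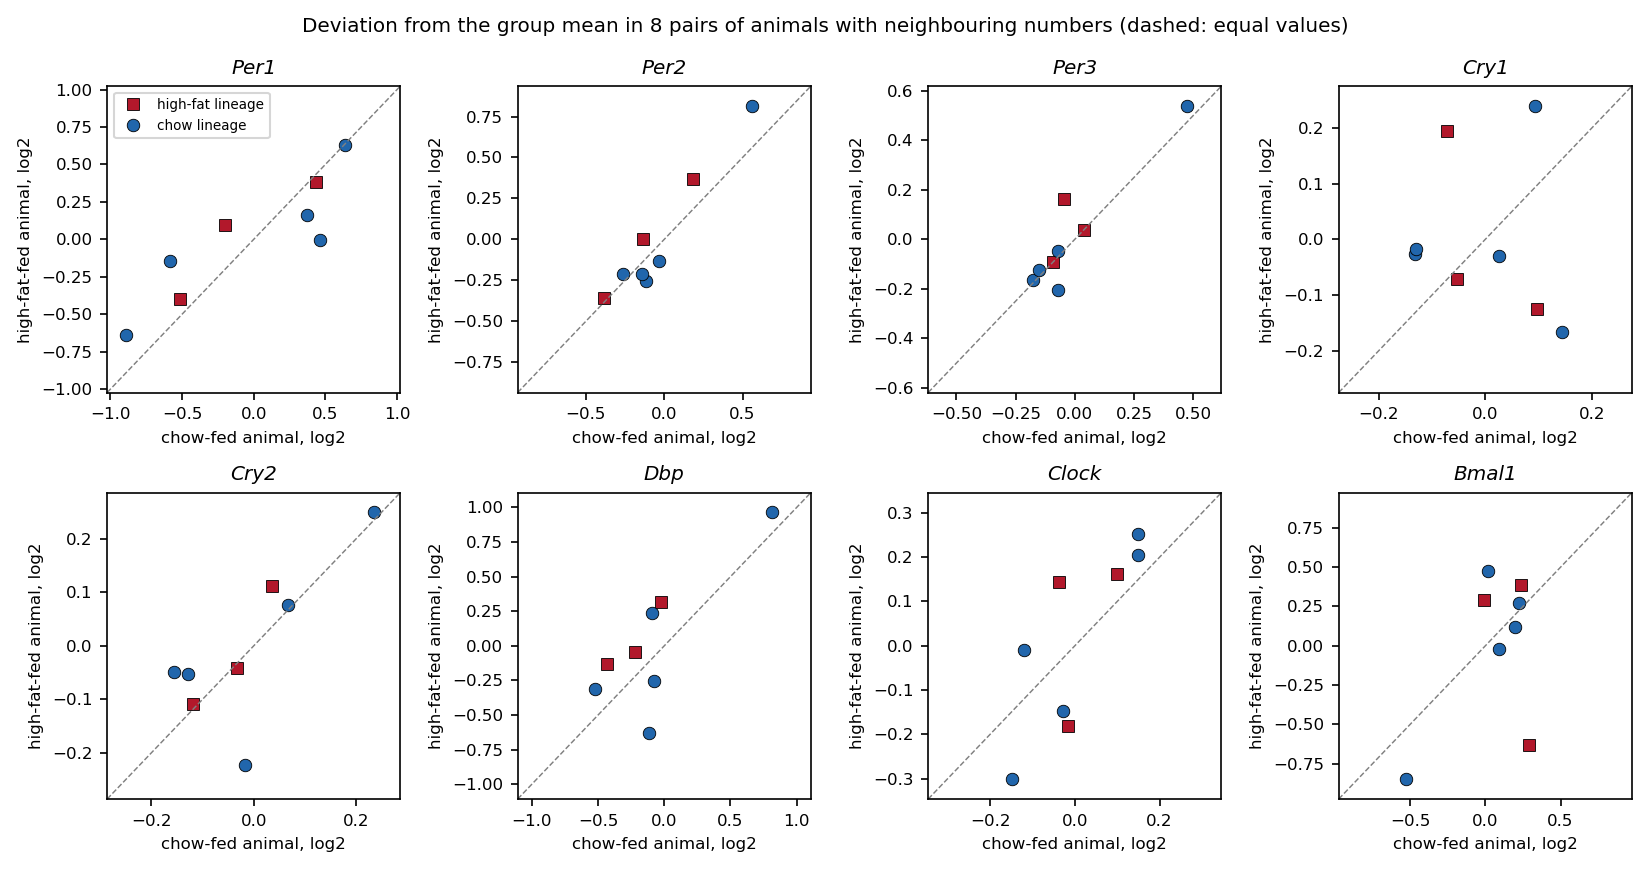
Deviation of the high-fat-fed female from her group mean against that of the chow-fed female of the neighbouring number, in log2, for 8 pairs and 8 clock genes; the dashed line marks equal values and squares mark the high-fat and circles the chow lineage. Points follow the line for Per1, Per2 and Per3, while Cry1 and Bmal1 scatter around it.

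Genes most like Bmal1 or Dbp over the 18 animals were listed by Pearson's r of centred levels, as a description that again carries the 4 animals. The 6 nearest to Bmal1 were Wsb1, a ubiquitin ligase adaptor (0.93), Eef2kmt, a methyltransferase of an elongation factor (0.91), Nfil3 (0.90), Ell2, a transcription elongation factor (0.90), Rasgrf2, an exchange factor for Ras (0.86), and Npas2 (0.85). Over the other 14 animals these were 0.63, 0.67, 0.67, 0.69, 0.50 and 0.28. The 6 most opposed to Bmal1 were Mrps10, a mitochondrial ribosomal protein (-0.84), Zfp799 (-0.84), Mbd4, a DNA glycosylase (-0.82), Coq10b, a binding protein of coenzyme Q (-0.82), Usp2 (-0.82) and Synj2, a phosphoinositide phosphatase (-0.81). Over the 14 animals these were -0.23, -0.64, -0.45, -0.71, -0.29 and -0.57. For Dbp the nearest were Coq10b (0.86), the transcription factor Sox13 (0.86), Pdp1, which activates pyruvate dehydrogenase (0.84), the chloride cotransporter Slc12a2 (0.83), the olfactory receptor Or12e13b (0.83) and Usp2 (0.82). Over the 14 animals these were 0.66, 0.61, 0.58, 0.72, 0.49 and 0.49. The most opposed to Dbp were Nfil3 (-0.90), Rasgrf2 (-0.87), Adgre1, a macrophage receptor (-0.87), Alox5ap, which serves leukotriene synthesis (-0.86), Duoxa1, a maturation factor of an oxidase (-0.86), and Cybb, the oxidase of phagocytes (-0.86). Over the 14 animals these were -0.67, -0.67, -0.77, -0.72, -0.63 and -0.69. Or12e13b, Duoxa1 and Eef2kmt had mean levels of 5.32, 5.45 and 5.50, near the filter of 5.28. Nfil3 and Usp2, which appear for both genes, and Npas2 belong to the clock lists.

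Marker lists were set beside these genes. All 6 leukocyte markers measured, of 6, had negative r with Dbp (median -0.59, between -0.75 and -0.29) and positive r with Bmal1 (median 0.44). Over the other 14 animals the medians were -0.40 and -0.054, and 1 of 6 leukocyte markers was positive with Dbp and 3 of 6 with Bmal1. The summed intensity of these markers ran from 606 to 727 in high-fat/high-fat, 677 to 835 in high-fat/chow, 590 to 781 in chow/high-fat and 603 to 836 in chow/chow animals, with no marker at 0. All 6 slow-muscle markers had negative r with Bmal1 (median -0.34) and positive r with Dbp (median 0.28). The sums of the slow-muscle markers ran from 3458 to 13640, 3927 to 12226, 4635 to 16264 and 8077 to 15482 in the same order of groups. The red blood cell list, with 2 of 3 markers measured, had a median r of -0.35 with Bmal1 and 0.21 with Dbp. Over the other 14 animals these medians were -0.62 and 0.47. The part of these cells or fibres in the result was not tested.

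Per1 also moved with genes that glucocorticoid induces in muscle, of which 11 of 13 were measured. Its r was positive with 9 of 11, with a median of 0.43 over 18 animals. Over all genes it was positive with 6363 of 12634, with a median of 0.00265. Over the 14 animals outside the high index it was positive with 10 of 11, with a median of 0.61, against 6233 of all genes and a median of -0.0053. For the further outputs and repressors the median r with Per1 was 0.37 over 18 animals, positive with 7 of 9, and -0.20 over 14, positive with 3 of 9. Single genes of the list were picked after their values were seen. Klf9, a transcription factor that the hormone receptor induces, gave 0.88 over 18 animals and 0.88 over 14, and Fkbp5, a chaperone of that receptor, gave 0.44 and 0.90. The transcription factor Zbtb16 gave 0.053 over 18 animals and 0.72 over 14. Others of the list were weak or went the other way: Pdk4 gave -0.35 and 0.14, Fbxo32 -0.26 and -0.085, and Sgk1 0.24 and 0.11. With Dbp the median r of the list was 0.050 over 18 animals, positive with 7 of 11, and 0.33 over 14, positive with 11 of 11. With Bmal1 it was 0.044 and 0.0082. These are descriptions with no test.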

How the data were processed

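Gene expression was measured on 18 Affymetrix arrays, 1 per animal. The authors deposited an intensity on a linear scale for 20917 probe sets, made with Affymetrix Expression Console and PLIER, per the submitters' processing notes, in versions not given in the sources used here. Probe sets with 1 symbol (18197) were kept, those with several (960) or none (1760) were not, and each gene was read from its probe set of highest mean. Array medians differed by 0.341 log2, over the tolerance of 0.1, so log2(intensity + 16) was quantile normalized. Genes with a mean above the 25th percentile (5.28) were tested. limma 3.58.1 (R 4.3.3) fitted 4 group means to all arrays, tested two-sided, with a Benjamini-Hochberg threshold of 0.05 within each of 7 comparisons.

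Correlations between members used Pearson's r and Spearman's rho of group-centred levels with 100000 two-sided permutations within groups (numpy 2.4.6, scipy 1.17.1), and neighbouring numbers all pairings (two-sided exact test). Each member was also correlated with 12634 other genes, and p-values were adjusted over all pairs together. Adjustment over the members or their pairs alone, though planned, is not reported, since the members, lists and tests were chosen with earlier results of these data known. Genes outside the members are named by rule: from the output, activator and turnover lists, those called or the 2 of smallest p in each average, and the 6 genes of highest and lowest r with Bmal1 and Dbp. Further genes named for their spread or their glucocorticoid response were picked from the lists after values were seen. The fit was tested on simulated data. Arrays of 1 group were compared in 32 pairs to look for copies, and none was found: log2 differences had an SD of 0.196 or more, and 0.0908% of values or fewer were identical. Replicate numbers follow accession order and only name an animal. Motifs were matched in RefSeq promoter windows of GRCr8, a build not tied to the array.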

Additional observations from a re-analysis of the deposited data

Results flagged for a closer look

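In 5 of 32 combinations of a clock gene and a group, 1 animal stood far from its companions, by the size of the gap to its nearest companion over the range of the group (above 0.71 for 5 animals). Chance would give about 1 in 20 such groups if they were independent. These genes moved together over the same animals, so the 5 are not separate results and cannot be set against that rate. No such count was made over all genes. All 5 belong to a pair of females of neighbouring number, replicates 3 of the chow lineage groups. Per2 was 8.39 in chow/high-fat replicate 3, with a gap of 0.88 of the range, and 8.22 in chow/chow replicate 3. Per3 was 8.94 in chow/high-fat replicate 3 and 8.90 in chow/chow replicate 3. Bmal1 was 8.10 in chow/chow replicate 3, the lowest of its group.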

How the results depend on the processing

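Under 31 other settings 0 clock genes were called in the comparisons each could be run for, also with each array left out (0 in all). The fixed block was run for 3 own-diet comparisons, the fit on only the groups compared for 4, and the other settings for all 7. Here the smallest adjusted p was 0.129, for a Clock interaction of 0.44 in the table as deposited (limma). Of these other values 9 had an unadjusted p under 0.05. The count of 17 member pairs at a permutation p under 0.05 was 16 in the deposited scale, 17 after median-centring, 17 with offsets of 1 and 64 and 18 without the 2 arrays of lowest median. Leaving out each array gave 10 to 18, with 10 without chow/high-fat replicate 3. It was 2 without the 4 animals of highest index, 0 when adjusted over all pairs of a member and a gene, 17 with each neighbouring pair as 1 unit and 9 by Spearman's rho. The adjusted count decides nothing about any given pair, since the permutations give no p small enough to pass alone. In column 5 alone, Per2 and Per3 gave -0.14 and Cry2 and Clock 0.047, against the pooled sign. The 6 clock genes with an exact p under 0.05 between neighbours became 4 in the deposited scale, 4 after median-centring, 4 without the 2 arrays of lowest median and 2 to 5 when each pair was left out, with 2 without replicates 3 of the chow lineage. Shares over other genes were taken in the main setting and, for pairs of members, also without the 4 animals. The counts in the other settings have no such share beside them. In spread 4 genes of 8 lay above the 95th percentile, and the same 4 animals had the highest index, as deposited, centred and at both offsets. Without the 4 animals, pairs as units, pairs left out, the fixed block and the adjustment over all pairs were chosen after seeing the data. Other probe sets of a member could not be tried, since each has 1. Groups share no replicate numbers in the labels, and the blocks were made from neighbouring animal numbers. The causes of these shifts were not tested.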
